A study of Mus musculus with 2 samples.

Results

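The genes described here govern cholesterol efflux under the liver X receptor (LXR), fatty acid synthesis and desaturation, and the uptake and storage of lipid. They were chosen by name from a list of 43 genes, and a probe set, the group of short oligonucleotides on the array that reads 1 transcript, belonged to the set when the platform annotation gave exactly 1 of these symbols for it. This found 97 probe sets of 40 genes among 45037 probe sets on the array (18093 genes had a usable probe set). Nr1h2, Soat1 and Acsl1 were not analysed here. Peritoneal macrophages of C57BL/6J mice, drawn into the cavity by thioglycolate and collected 3 days after its injection, were treated with LPS+CPN or with LPS+CPN+GGOH, and each condition was measured on 1 array. All cells thus received LPS (lipopolysaccharide, a bacterial cell wall component that macrophages sense) and CPN, which the labels name by this abbreviation alone, and the groups differ by GGOH, geranylgeraniol, the alcohol form of an isoprenoid of the mevalonate pathway. The sources used here do not state dose, duration, the age and number of mice, or any purification of the cells. The comparison asked which genes read higher or lower on the LPS+CPN+GGOH array than on the LPS+CPN array.

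LXR is a nuclear receptor that pairs with RXR, is switched on by oxidised sterols and turns on genes that export cholesterol from macrophages and that remodel membrane lipid. It also raises transcription of Srebf1, which encodes the SREBP-1 factors that drive fatty acid synthesis. Macrophages that take up lipoproteins split their cholesteryl esters in lysosomes, and then export the sterol, re-esterify it or keep it in droplets.

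The median of the fatty acid synthesis and desaturation genes lay above that of all genes, with members on both sides, the median of the LXR target genes lay below it, and few members differed by 2-fold. The desaturase gene Scd2 was 3.68-fold higher with GGOH, while Acss2, which makes acetyl-CoA from acetate, was 2.72-fold lower and the niacin receptor gene Hcar2 was 3.83-fold lower. These were 1 gene higher and 2 lower of 39 measured members, beside 5.5% higher and 1.66% lower of the 11518 genes measured on the arrays. At 1.5-fold, 9 members were higher and 6 lower (23.1% and 15.4%), beside 12.5% and 7.82% of all measured genes. The 9 include Vldlr, which was measured only with GGOH and so could only come out higher. Over the 9909 genes measured on both arrays the shares were 3.31% and 1.52% at 2-fold, and 9.63% and 7.52% at 1.5-fold. With 1 array per group there is no test and no error between samples, so these counts describe the 2 arrays. To gauge error inside the arrays, log2 ratios of probe sets for the same gene had a pooled SD of 0.45 over 4166 genes, which is a factor of 1.36.

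The direction of small differences depended on how the arrays were set to a common level. At the deposited level all measured genes had a median of -0.01 (log2) and 76.8% of the genes past 2-fold were higher, while the members counted 1 higher and 2 lower. With each array divided by its median this share was 61.4% and the members counted 1 and 3. After quantile normalization it was 62.1%, with 2 and 3 members. With the arrays set to equal macrophage markers it was 90.6%, with 6 and 2 members, the additional higher genes being Acsl4, Fabp4, Fads1, Lpcat3 and Vldlr. Dividing by medians shifted the median of all genes by -0.16, and equal macrophage markers shifted it by 0.20.

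**Figure D1:**
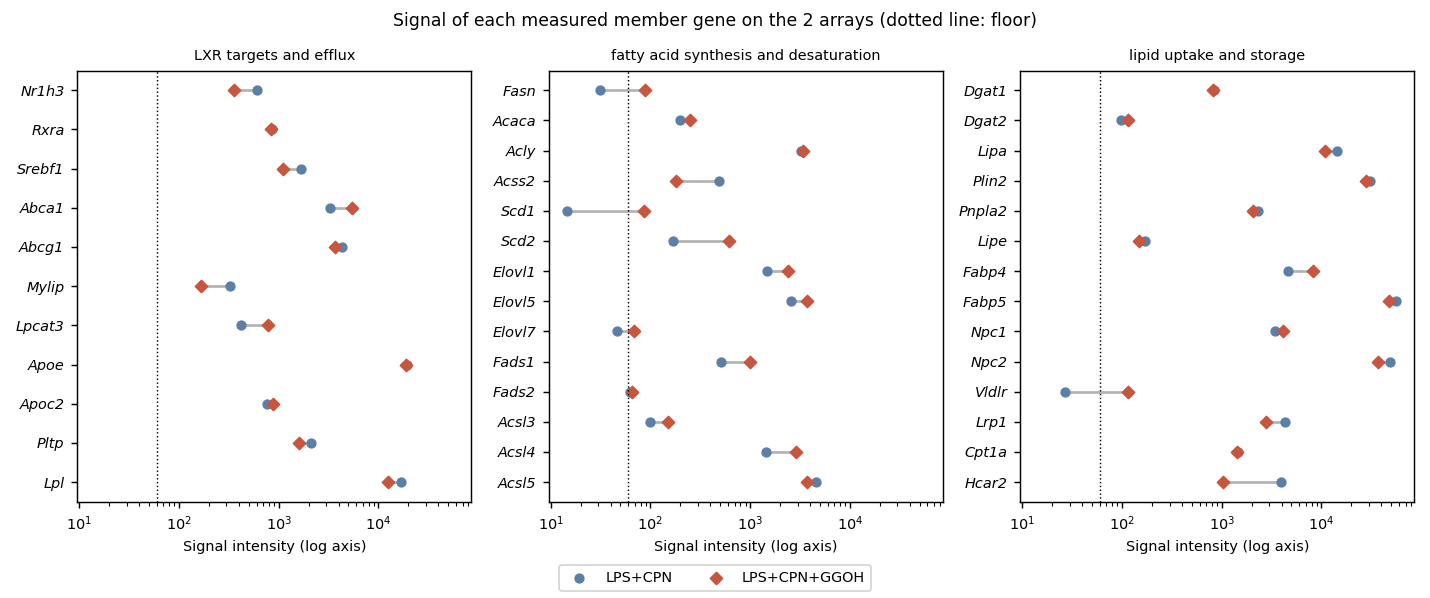
Signal intensity of the 39 measured member genes on the LPS+CPN array (circles) and the LPS+CPN+GGOH array (diamonds), in 3 groups, on a log axis; 1 array per condition, so no error bars. The dotted line is the floor of 59.9, and Scd2, Acss2 and Hcar2 have the widest gaps among genes above it on both arrays.

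A signal counted as measured when it lay above a floor of 59.9, the median of all probe set signals. Of the 85 member probe sets outside the _x_at class, whose oligonucleotides can bind other transcripts, 58 lay above the floor on both arrays, 11 on 1 array and 16 on neither. Each gene took the value of its brightest probe set, and 35 members were measured on both arrays. Fasn, Scd1, Elovl7 and Vldlr lay above the floor only with GGOH, so each has only a lower bound and could come out only as higher. For Elovl6, a fatty acid elongase gene, the brightest probe set lay below the floor on both arrays, while another of its 3 read 6.85 without GGOH and 85.9 with it.

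Markers of cells other than macrophages differed between the arrays. All 14 macrophage markers were measured on both arrays, with a median log2 ratio of -0.21 and a summed signal of 262035 without GGOH and 229566 with it. Of 10 fibroblast markers, 3 were above the floor without GGOH and 8 with it, and their summed signal was 1094 and 20463. The largest differences were in the collagen genes Col1a2 (287 and 11165), Col3a1 (at least 25.9-fold higher), Col1a1 (at least 17.6-fold) and Col5a1 (15.6-fold). Of 8 mesothelial markers, 1 was above the floor without GGOH and all 8 with it, and their sum was 273 and 2466. Wt1, Krt8, Upk1b and Krt18 led that list, from at least 5.14-fold to at least 9.02-fold higher. Among the macrophage markers the integrin gene Itgam was 2.07-fold higher, and no other passed 2-fold. Of 5 adipocyte markers, none lay above the floor without GGOH and 1, Retn, with it (79.7), and Adipoq, which adipocytes make in quantity, lay below the floor on both arrays. None of 4 B cell, 6 T cell or 6 eosinophil and mast cell markers lay above the floor on either array. The endothelial and neutrophil lists had at most 1 of 6 and 2 of 6 genes above it, with the neutrophil gene S100a8, also made by activated macrophages, at 4282 and 2216. In bulk RNA such as this, fewer cells of a type and less RNA per cell cannot be told apart, and the part of fibroblasts and mesothelial cells in the member genes' differences was not tested. RNA quality also moved with the group. The ratio of 5' to 3' control signal was 0.41 without GGOH and 0.80 with it for Actb, and 0.50 and 1.05 for Gapdh, and its part was not tested either.

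Of the LXR targets and efflux group, 11 of 12 listed genes were measured, all on both arrays. Their median log2 ratio was -0.24 and 8 were below 0, so 27.3% were above 0, beside 48.6% of all measured genes. None passed 2-fold, beside 5.5% higher and 1.66% lower of all measured genes, or 3.31% and 1.52% of those measured on both arrays. At 1.5-fold 2 were higher and 3 lower (18.2% and 27.3%), beside 12.5% and 7.82%, or 9.63% and 7.52% on both arrays. The group's median minus that of all genes was -0.22 at the deposited level and lay between -0.23 and -0.12 under the 4 other scalings.

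The receptor genes were not higher. Nr1h3, which encodes LXR-alpha, read 609.7 without GGOH and 359 with it, 1.70-fold lower on its single probe set. Its partner Rxra read 865 and 836, a log2 ratio of -0.05, and a dimmer probe set gave -0.31. Srebf1, the LXR target that encodes SREBP-1, read 1688 and 1117, 1.51-fold lower. Nr1h3 and Srebf1 stayed below 0 under all 11 other settings, while Rxra was at 0.16 under equal macrophage markers, where all genes had a median of 0.19.

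The LXR target genes with the largest differences went in opposite directions, and the 250 bases upstream of their start sites are printed here from RefSeq (GRCm38.p6) together with that of Acss2, the SREBP target that was 2-fold lower. The windows are chr4:53159896-53160145 on the minus strand for Abca1, chr6:124662854-124663103 on the plus strand for Lpcat3, chr13:45389492-45389741 on the plus strand for Mylip and chr2:155517793-155518042 on the plus strand for Acss2. Each is written 5′ to 3′ along the gene's strand, and capitals mark letters found by a search of both strands for CCAAT (the box bound by NF-Y), GGGCGG (the box bound by Sp1) and CACGTG (an E-box), overlapping copies included.
Abca1: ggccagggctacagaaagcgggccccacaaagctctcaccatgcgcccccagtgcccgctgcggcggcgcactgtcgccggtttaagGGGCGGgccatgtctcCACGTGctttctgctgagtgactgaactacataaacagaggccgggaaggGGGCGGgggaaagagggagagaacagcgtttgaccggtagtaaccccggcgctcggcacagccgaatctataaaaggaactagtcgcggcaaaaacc
Lpcat3: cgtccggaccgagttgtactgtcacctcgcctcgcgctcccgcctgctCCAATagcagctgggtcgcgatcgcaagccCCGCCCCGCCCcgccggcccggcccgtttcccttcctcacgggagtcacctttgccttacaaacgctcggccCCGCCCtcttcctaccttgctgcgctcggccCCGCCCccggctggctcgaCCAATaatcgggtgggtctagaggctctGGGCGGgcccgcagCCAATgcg
Mylip: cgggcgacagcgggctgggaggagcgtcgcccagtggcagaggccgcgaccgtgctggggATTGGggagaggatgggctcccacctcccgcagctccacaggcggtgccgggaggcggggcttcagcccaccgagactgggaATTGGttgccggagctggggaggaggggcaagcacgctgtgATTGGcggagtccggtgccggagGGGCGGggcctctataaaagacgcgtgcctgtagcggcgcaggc
Acss2: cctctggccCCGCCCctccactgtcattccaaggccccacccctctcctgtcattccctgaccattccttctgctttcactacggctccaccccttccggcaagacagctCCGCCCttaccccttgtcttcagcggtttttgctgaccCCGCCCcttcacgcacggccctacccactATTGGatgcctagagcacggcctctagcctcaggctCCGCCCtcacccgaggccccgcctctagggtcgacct

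NF-Y and Sp1 are known partners of SREBP at its target promoters. Lpcat3 and Mylip each held 3 copies of CCAAT, Acss2 held 1 and Abca1 none, while GGGCGG was found in all 4 windows and CACGTG in that of Abca1 alone. Thus the windows of Lpcat3, higher with GGOH, and Mylip, lower with it, shared both boxes. CCAAT stood in 33.8% of all 32851 upstream windows of this length in the table, GGGCGG in 32.7% and CACGTG in 6.02%. Over the 42 windows of 32 listed genes, 29 of them with a probe set here, the shares were 42.9%, 52.4% and 7.14%. The sterol response element core TCACNCCAC, present in 1.05% of all windows, was found in that of Acsl1 alone. A direct repeat of AGGTCA-type elements with 4 bases between them, the form LXR binds (known as DR4), was in 0.067% of all windows and in none of these. AGGTCA alone stood in 4607 of all windows and in 7 of these 42. A match is a description of letters, and a missing match says only that these exact letters are not in this window.

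Abca1, the transporter that loads cholesterol onto apolipoprotein A-I, read 3285 without GGOH and 5489.8 with it, 1.67-fold higher. Its 3 probe sets disagreed, with log2 ratios of 0.74 (the brightest), 1.79 (148 and 513) and -0.50 (240.4 and 170.2). Abcg1, which passes sterol on to HDL particles, read 4284 and 3635, and both of its probe sets gave -0.24. These transporter genes therefore differed in sign on their brightest probe sets, with those of Abca1 itself split.

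Lpcat3, the LXR-induced enzyme that puts polyunsaturated chains into phospholipids, read 417 and 779, 1.87-fold higher. Mylip, the LXR-induced ubiquitin ligase that degrades the LDL receptor, read 327 and 167, 1.95-fold lower. Each has 1 probe set, so no second reading exists, and Mylip passed 2-fold under 3 of the 4 other scalings. Among all measured genes, 6.55% had a higher ratio than Lpcat3 and 1.87% a lower ratio than Mylip.

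The apolipoprotein and lipoprotein genes differed little. Apoe, the macrophage's own lipid carrier, read 19549 and 19054. Apoc2, the cofactor of lipoprotein lipase, read 769.6 and 885, a log2 ratio of 0.20. The phospholipid transfer protein gene Pltp had log2 ratios of -0.39 and -0.26 on its pair of probe sets. Lpl, lipoprotein lipase, read 16991 and 12515 on the brighter probe set (-0.44), and 5489 and 5481 on the other. Thus the RNA signals of these genes for secreted proteins were within 1.36-fold on every probe set.

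Of the 15 fatty acid synthesis and desaturation genes with a probe set 14 were measured, with a median log2 ratio of 0.53 and 12 above 0 (85.7%, beside 48.6% of all measured genes). At 1.5-fold 5 were higher and 1 lower (35.7% and 7.14%), beside 12.5% and 7.82% of all measured genes. Of the 12, Fasn, Scd1 and Elovl7 are bounds that could only be higher. Of the 11 genes above the floor on both arrays 9 were above 0. The median of the 11 was 0.53, beside -0.03 for all genes measured on both arrays, whose share above 0 was not counted. With _x_at probe sets kept, Elovl1 (-0.27) and Acly (-0.20) turned below 0 and the group's median was 0.45. Under the other 4 scalings the group's median lay between 0.36 and 0.65, and above that of all genes by 0.43 to 0.56.

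The first steps, from acetyl-CoA to palmitate, had mixed values. Acly, which cleaves citrate to acetyl-CoA, read 3198 and 3365, a log2 ratio of 0.07, with 0.40 on a dimmer probe set and -0.20 on its brightest _x_at probe set. Acaca, acetyl-CoA carboxylase, read 196 and 252 (0.36). Fasn, fatty acid synthase, read 31.5 and 87.9, at least 1.47-fold higher, and both signals lie near the floor of 59.9. On the log2 scale this bound is 0.55, beside the SD of 0.45 between probe sets. Acss2 was the exception in direction, with 488 and 179 on its brighter probe set and 379 and 209 on another for the same transcript, log2 ratios of -1.44 and -0.86. Its remaining probe set lay below the floor on both arrays. Acss2 was lower under all 11 other settings, at least 2-fold in 10 of them, and at -0.38 with the floor at the 75th percentile.

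Among the desaturases, which place double bonds, Scd2 read 169 and 621 on its brightest probe set. Its other probe sets were dim, at 27.1 and 72.4, and at 40.4 and 15.4, so the 3.68-fold difference rests on 1 of 3 probe sets. Scd1, the related stearoyl-CoA desaturase, was below the floor without GGOH on both probe sets (14.4 and 7.11) and above it with GGOH on both (86.9 and 167). By the brighter on average it was at least 1.45-fold higher, and by the other at least 2.79-fold higher. Since Scd1 passed the floor only with GGOH, its direction was set by the filter and adds nothing to that of Scd2. Fads1, the delta-5 desaturase of polyunsaturated fatty acids, read 507 and 992, 1.96-fold higher, but 129 and 92.3 on a dimmer probe set. Fads2, the delta-6 desaturase, read 62.2 and 65.3, barely above the floor, and its sign changed with the scaling.

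The elongases lengthen fatty acids. Elovl1, which makes very long saturated chains, read 1481 and 2421, 1.64-fold higher. Its 3 _x_at probe sets gave log2 ratios from -0.29 to -0.01. Those reading 6443 and 5286, and 6977 and 5792, were brighter than the probe set that stood for the gene. With that class kept the gene's value turned to -0.27. Elovl5, the elongase of polyunsaturated chains, read 2567 and 3709.9 (0.53), and 0.14 on its _x_at probe set. Elovl7 read 46.2 and 68.6, at least 1.14-fold higher, and its 4 other probe sets outside the _x_at class lay below the floor on both arrays.

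The acyl-CoA synthetases activate fatty acids for use. Acsl4, which prefers arachidonic acid, read 1458 and 2878, 1.97-fold higher, and all 3 of its probe sets were higher, with log2 ratios from 0.38 to 0.98. Acsl3, found on lipid droplets, read 99.3 and 149, a log2 ratio of 0.59. Acsl5 read 4571 and 3675, a log2 ratio of -0.31. The synthetases thus did not share a direction, and Acsl4 passed 2-fold under quantile normalization, lowess and equal macrophage markers.

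**Figure D2:**
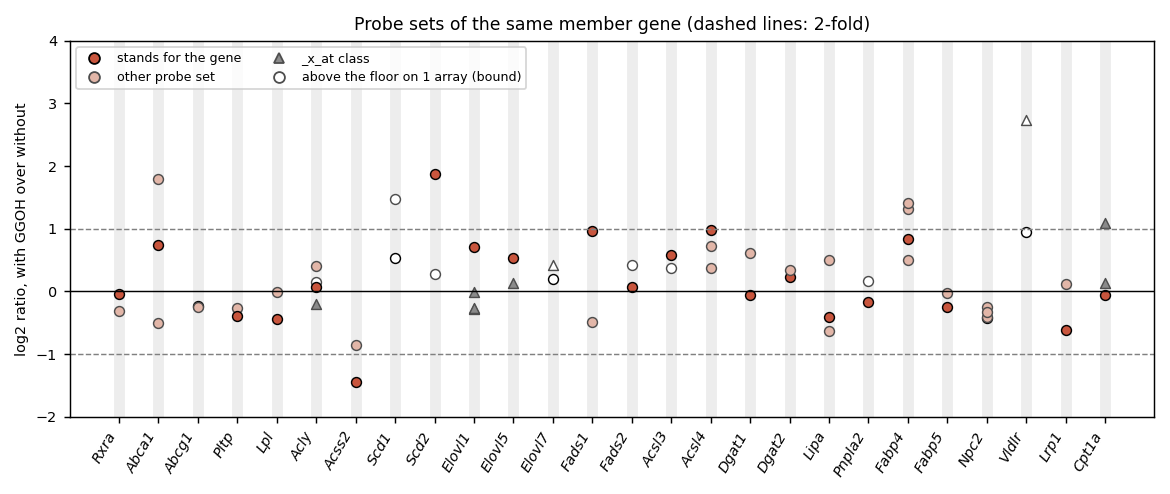
Log2 ratio (with GGOH over without) of every measured probe set of the member genes that have at least 2; circles with a black edge stand for the gene, triangles are of the _x_at class, open symbols are bounds. Fabp4, Acsl4 and Npc2 have all probe sets on 1 side of 0, whereas Abca1, Fads1 and Lipa span it.

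Several probe sets were measured outside the _x_at class for 21 member genes, and 15 of them had 1 sign in all. In the 16 genes with at least 2 probe sets above the floor on both arrays, the median gap between the highest and the lowest log2 ratio was 0.51. It was over 1 in 3 of them, Abca1, Fads1 and Lipa. The 5' to 3' signal differed between the arrays as given above, and where along the transcripts these probe sets lie was not analysed here.

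Of 15 listed lipid uptake and storage genes 14 were measured, with a median log2 ratio of -0.15 and 10 below 0. Thus 28.6% were above 0, beside 48.6% of all measured genes. None was at least 2-fold higher, and 1, Hcar2, was at least 2-fold lower (7.14%), beside 5.5% and 1.66% of all measured genes. Under equal macrophage markers the median was 0.06, below the 0.19 of all genes on that scale. The group's median minus that of all genes lay between -0.14 and 0.01 over the deposited level and the 4 other scalings.

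Fatty acid binding proteins carry fatty acids through the cytosol. Fabp5 had the brightest probe set of all 45037 on both arrays, at 56591 and 47867, and its other probe set read 34339.6 and 33671. Fabp4, which macrophages share with adipocytes, read 4648 and 8303, 1.79-fold higher, and its other 3 probe sets were 1.41-fold, 2.49-fold and 2.66-fold higher. The 4 Fabp4 probe sets therefore shared a direction that the Fabp5 ones, with log2 ratios of -0.24 and -0.03, did not. After quantile normalization Fabp5 was at 0, a value fixed in advance because its brightest probe set held the same rank on both arrays. As the median over its probe sets Fabp4 was at 1.08. Of the 5 adipocyte markers that were read, Retn lay above the floor only with GGOH, and the others lay below it on both arrays. The part of adipocytes, fibroblasts or mesothelial cells in the Fabp4 difference was not tested.

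Of the uptake receptors, Lrp1 had probe sets of opposite sign, and Vldlr had 1 measured probe set outside the _x_at class. Vldlr, the very low density lipoprotein receptor, read 27.1 and 115, at least 1.92-fold higher. Its 4 further probe sets outside the _x_at class lay below the floor on both arrays and give no second reading. A Vldlr probe set of the _x_at class read 30.9 and 397, at least 6.63-fold higher. Lrp1, a large receptor for apolipoprotein E remnants, read 4279 and 2805, 1.53-fold lower, but 937 and 1014 on a second probe set. Thus the difference of Lrp1 was not seen in both of its probe sets. That of Vldlr rests on bounds that could only be higher.

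The lysosomal step was abundant in both conditions. Lipa, the acid lipase that frees cholesterol from its esters, read 14397 and 10881 on the brightest probe set (-0.40), 10622 and 6832 on another (-0.64), and 4957 and 7054 on the dimmest (0.51). All 3 carry the same sequence record in the platform annotation. Npc2, which binds the freed sterol, read 49155 and 36712, and its 4 probe sets gave log2 ratios from -0.42 to -0.25. Npc1, the membrane protein that takes the sterol from it, read 3456 and 4143 (0.26). The partner proteins of sterol exit thus read in opposite directions, each within 1.5-fold.

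Storage and breakdown genes were close to level. Plin2, the coat protein of macrophage lipid droplets, read 30557 and 28003. Dgat1 and Dgat2, which make triglyceride, had log2 ratios of -0.06 and 0.23, with a second Dgat1 probe set at 0.61. Pnpla2, the first lipase of droplet triglyceride, read 2333 and 2075, and Lipe, hormone-sensitive lipase, 171 and 147. Cpt1a, the gate of mitochondrial fatty acid oxidation, read 1465 and 1410.3, and its pair of _x_at probe sets gave 0.13 and 1.09. The signs of Plin2, Dgat1 and Dgat2, like those of Apoe, Acly, Fads2 and Elovl1, differed under at least 1 other setting. Pnpla2 (0.04) and Cpt1a (0.16) were above 0 only under equal macrophage markers, where both, as at the deposited level, lay below the median of all genes (0.19).

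Hcar2, a receptor for niacin and ketone bodies that restrains lipolysis in fat cells and is made by macrophages too, had the lowest ratio of all members. It read 3956 without GGOH and 1032 with it, a log2 ratio of -1.94 on its single probe set, and 0.0868% of all measured genes had a lower one. It was at least 2-fold lower under all 11 other settings, between -2.11 and -1.73.

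**Figure D3:**
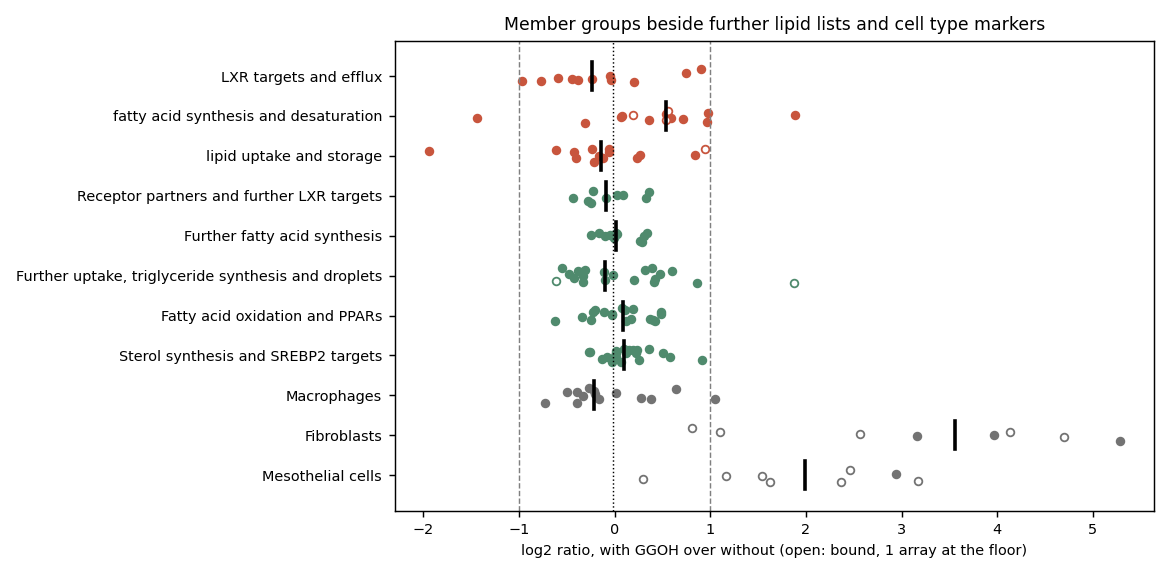
Log2 ratio of each measured gene (points) in the 3 member groups, 5 further lipid lists and 3 cell type marker lists; thick bars are list medians, the dotted line is the median of all genes (-0.01), dashed lines mark 2-fold and open points are bounds. Medians of fibroblast (3.56) and mesothelial (1.99) markers lie to the right of those of every lipid list, and fatty acid synthesis and desaturation has the highest median (0.53) of the lipid lists.

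Other genes of the same pathways, from lists fixed for each pathway, had medians closer to that of all genes. At 1.5-fold, 12.5% of all measured genes were higher and 7.82% lower. Of 9 measured receptor partners, coregulators and further LXR targets, none passed 1.5-fold, and the median log2 ratio was -0.09. Of 11 further fatty acid synthesis genes, among them Slc25a1, the citrate exporter of mitochondria (0.03), and Me1, malic enzyme (-0.00448), none passed 1.5-fold either, and the median was 0.02. Of 18 fatty acid oxidation and PPAR genes 1 was at least 1.5-fold lower, the nuclear receptor gene Ppard at -0.62, none was higher, and the median was 0.09. Of 21 genes of sterol synthesis and SREBP2 targets, the sister branch of SREBP control, only Fdps (0.92) passed 1.5-fold, and the median was 0.09. The 5 fatty acid genes that were 1.5-fold higher were Scd2, Fads1, Elovl1, Acsl3 and Acsl4. Of these, Elovl1 turned to -0.27 with the _x_at class kept, Fads1 was lower on a dimmer probe set and Scd2 rests on its brightest probe set. Acsl3, at 0.586, lay at the cutoff of 0.585, and the synthetase gene Acsl5 was lower. In the sterol branch 15 of 21 genes lay above 0 (71.4%, beside 48.6% of all measured genes). After division by array medians its median was -0.07 and that of all genes -0.17, so it lay above all genes there as it did at the deposited level.

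Of 21 further genes of uptake, triglyceride synthesis and droplets, 3 were at least 1.5-fold higher and 1 lower, with a median of -0.10. These shares were 14.3% and 4.76%, beside 12.5% and 7.82% of all measured genes. Angptl4, an inhibitor of lipoprotein lipase, read 3.46 without GGOH and 219.9 with it, at least 3.67-fold higher, the only gene of the list past 2-fold. Nceh1, which hydrolyses cholesteryl esters outside lysosomes, read 3048 and 5519, 1.81-fold higher, and the fatty acid transporter gene Slc27a1 read 733 and 1106. The scavenger receptor gene Cd36 read 11552 and 16030 (0.47), and Msr1, another scavenger receptor, 10049 and 7238 (-0.47). Plin5, a droplet protein of oxidative tissue, read 91.5 without GGOH and was below the floor with it, at least 1.53-fold lower.

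**Figure D4:**
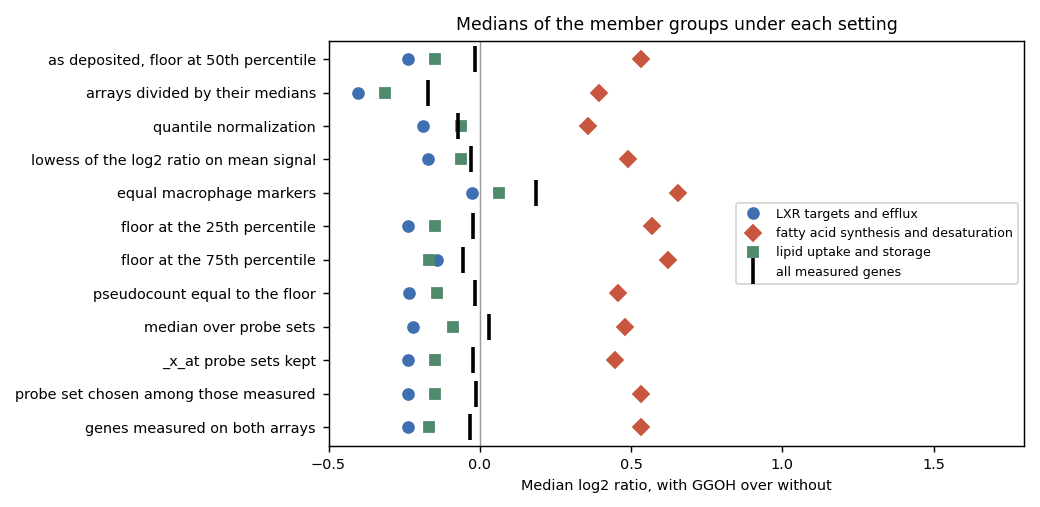
Median log2 ratio of each member group (circles, diamonds, squares) and of all measured genes (bars) under the deposited setting and 11 others. Fatty acid synthesis and desaturation lies to the right of all genes in each row, from 0.36 to 0.65, and LXR targets and efflux to the left.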

How the data were processed

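Expression was measured in 2 samples on 1 array each. The deposited intensity values, 1 linear signal per probe set, were made with MAS5 per the submitters' processing notes; the sources used here state neither its version nor its scaling target. The mean of the central 96% of signals was 500.0 on each array, so the arrays had been set to a common level. Probe sets were named from the platform annotation, and the gene identifiers of all 97 member probe sets were found in a RefSeq table of GRCm38.p6. Control probe sets and the _x_at class were left out of gene values. The probe set brightest on average (mean log2) stood for a gene, and signals under the floor of 59.9 (50th percentile) were then raised to it. Genes at the floor on each array were not measured, and genes at it on 1 array had a bound. The log2 ratio is with GGOH minus without. Counts used 2-fold and 1.5-fold. Having 1 array per group limits the precision.

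Members and gene lists were chosen with earlier results of these data known. All members are named in the text, with up to 4 genes per direction of each further list past 2-fold, and other genes named there were chosen after their values were seen. The same rule named genes of the cell type lists. The other settings were 4 scalings (medians, quantile, lowess with span 0.4, equal macrophage markers), the floor moved to the 25th or the 75th percentile, a pseudocount equal to the floor, the median over probe sets and _x_at probe sets kept. The choice of the probe set among measured ones and the use of genes measured on both arrays alone were added after seeing the data. The steps were tested on simulated signals, with known differences past 2-fold planted in genes above the floor on both arrays. That test did not cover bounds, genes whose probe sets disagree or differences near 1.5-fold. Python 3.11.15, numpy 2.4.6, pandas 2.3.3 and statsmodels 0.14.6 were used.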

Additional observations from a re-analysis of the deposited data

Results flagged for a closer look

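Probe sets of the _x_at class entered no gene value, and 2 of them were at least 2-fold higher with GGOH and above the floor there. A Vldlr probe set of this class read 30.9 without GGOH and 397 with it, a log2 ratio of 2.73 against the floor, or at least 6.63-fold, beside at least 1.92-fold for the probe set that stood for the gene. A Cpt1a probe set of this class read 634 and 1353, a log2 ratio of 1.09, beside 0.13 for the other of its class (419 and 459) and -0.05 for the probe set that stood for the gene. Whether other transcripts gave part of these signals was not tested.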

How the results depend on the processing

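No paired analysis was possible because each group holds 1 array. Values count as moved past the SD among probe sets (0.45), and counts past a factor of 1.5; causes were not tested. The 4 medians of the member groups and of all members moved under none of the 11 settings by this rule. The SD is between single probe sets and exceeds the medians of LXR targets (-0.24), uptake and storage (-0.15) and all members (-0.04) in size. A change of their sign can thus count as unmoved, so the rule cannot show these medians to be stable. The median of uptake and storage ranged from -0.31 to 0.06, that of LXR targets from -0.40 to -0.03 and that of all members from -0.20 to 0.17. Members at least 2-fold higher, 1 as deposited, numbered 2 after quantile normalization, lowess, a pseudocount, _x_at probe sets kept, or choice among measured probe sets, 3 with the median over probe sets, 4 with the floor at the 25th percentile, 6 under equal macrophage markers and 0 with the floor at the 75th, where Scd2 was at 0.72. Members at least 2-fold lower, 2 as deposited, numbered 1 with the floor at the 75th percentile. Members at least 1.5-fold lower, 6 as deposited, numbered 3 under equal macrophage markers. With that highest floor 29 members were measured. The floor moved the values of Fasn, Scd1 and Vldlr when lowered and of Acss2 and Scd2 when raised.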
